A study of Mus musculus with 12 samples.

Results

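Mouse 3T3 cells, an established fibroblast line, were treated with 100 nM Shld1 and compared with control cells by 2-colour expression array. The comparison rests on 6 of the 12 arrays of the series, 3 labelled 100 nM (replicates 1 to 3) and 3 labelled control (replicates 1 to 3), all taken by their labels and not by any measured value. The other 6 arrays hold cells at 10 nM and 1 µM Shld1, 3 each, and enter only to estimate the spread and to show where 100 nM differs from its neighbouring doses. Each array carried the cells' RNA in Cy5 beside Stratagene's mouse reference RNA in Cy3, and the dyes were not swapped. The subline, the duration of treatment, the vehicle and any fusion protein in the cells were not stated. Nor was it stated whether replicates came from separate cultures, so the p-values cover the spread between these arrays alone, which may be technical.

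Shld1 is a synthetic ligand of the FK506-binding protein FKBP12, altered so that it fits a mutant FKBP12 domain much better than the natural protein. That mutant domain is unstable and drags any protein fused to it to the proteasome, and Shld1 shields the fusion from degradation. Natural FKBP12 is a prolyl isomerase that binds FK506 and rapamycin, and these complexes inhibit calcineurin and mTOR. It also sits on calcium release channels and on type I receptors of the TGF-beta family. From the title of the series, the question is what Shld1 itself does to the transcripts of 3T3 cells.

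All levels below are log2 ratios of sample over reference after each array was centred on its median. Base 2 was assumed, and the dyes gave the direction. A level of 0 therefore marks a transcript with the array's median ratio, and a difference of 1 is a doubling. With the opposite direction, higher and lower would change places throughout. A test was made for 31447 of 38784 probes, those with a value on at least 2 of 3 arrays on each side. They include 22614 probes with a single gene symbol, for 14843 genes. Between 30649 and 33615 probes had a value on each of the 6 arrays, and pairs of these arrays correlated at 0.739 to 0.846. The cells read as matrix-producing fibroblasts against the reference: the 22 genes listed for fibroblasts and matrix had a median level of 1.02 in controls and 1.05 at 100 nM. In controls the median level was -1.61 over 12 macrophage markers and -0.86 over 14 B and T cell markers. Among the leukocyte genes, Ptprc (CD45) at -2.62 ± 0.79 (SD, n = 3) and Cd3g at -4.55 ± 0.49 (n = 3) lay below these medians, while other members lay above. Markers of other cell types had control medians nearer 0, at -0.26 for epithelial, -0.13 for endothelial, -0.11 for adipocyte and -0.05 for muscle markers.

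No transcript passed the test at 100 nM. Of 31447 probes, 0 were higher and 0 lower at an adjusted p under 0.05 (0% called, limma with Benjamini-Hochberg correction, smallest adjusted p = 0.832), and of 14843 genes 0 passed (smallest adjusted p = 0.354, limma), with 464 (3.13%) at an unadjusted p under 0.05. At an unadjusted p under 0.05 there were 1048 probes, 3.33% of those tested, where 1572 would be reached on average with no difference at all. Of these, 382 were higher (1.21%) and 666 lower (2.12%). The typical size of the difference was small, with a median of 0.15 over all probes beside a median SE of 0.24. The 95% interval lay between -1 and 1 for 78.2% of probes and 83.5% of genes, so that a change of more than 2-fold fell outside it. It lay between -2 and 2 for 96.6% of probes. The estimate itself was beyond 2-fold for 130 probes that were higher (0.413%) and 421 that were lower (1.34%). The 7337 probes left out and transcripts too dim to measure are not covered by these shares, and signal over background is unknown.

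**Figure D1:**
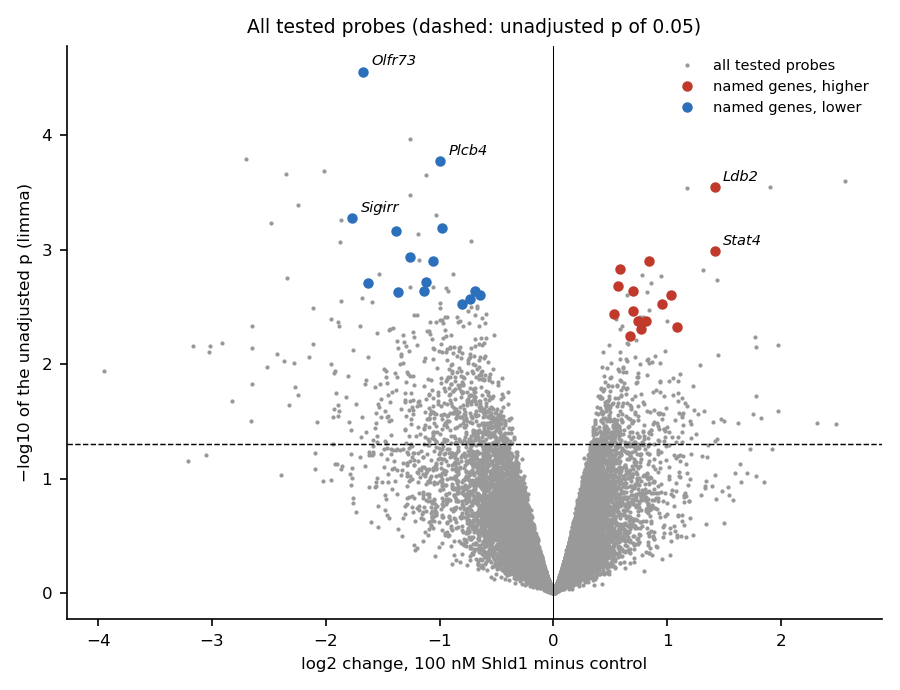
Each point is 1 of 31447 tested probes, with the log2 difference of 100 nM Shld1 minus control on the x axis and the −log10 of the unadjusted p of limma on the y axis. The 30 named genes are coloured, and Olfr73 has the smallest p, although its adjusted p is 0.832.

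The genes described next are those with the smallest unadjusted p in each direction, 15 higher and 15 lower, among named probes measured on all 6 arrays. None passed, with adjusted p of 0.832 to 1 in limma, so each value is given as a measurement and not as a change. For all 15 higher and all 15 lower genes the arrays of the groups did not overlap, a pattern that goes with the small p by which they were chosen. Over all 27751 probes measured on 6 arrays, 1244 (4.48%) had all 100 nM arrays above all controls and 1017 (3.66%) had all below, together 8.15%.

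Olfr73, an olfactory receptor gene, stood farthest from control by its p. Its level was -0.18, -0.38 and 0.21 in control replicates 1 to 3 and -1.54, -1.77 and -2.05 at 100 nM. The difference was -1.67 (SE 0.25, 95% interval -2.22 to -1.12), or 3.19-fold lower. All 3 treated arrays lay well below the lowest control, and only this probe names the gene. Plcb4, which encodes a phospholipase C that releases inositol trisphosphate from membrane lipid, was tight in both groups. Its level was 0.37, 0.32 and 0.52 in controls and -0.59, -0.71 and -0.48 at 100 nM, a difference of -0.998 (SE 0.18, interval -1.40 to -0.60), or 2.00-fold lower.

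Sigirr, a receptor that restrains interleukin-1 and Toll-like receptor signalling, went from -0.01, -0.40 and -0.13 in controls to -2.58, -1.23 and -2.03 at 100 nM, a difference of -1.77 (SE 0.36). Cd72, a B cell receptor that dampens antigen signalling, read -1.99, -1.32 and -1.16 in controls and -2.78, -3.05 and -2.41 at 100 nM. Its difference was -1.26 (SE 0.30), from a level already far below the reference. Vsir, which encodes the T cell checkpoint protein VISTA, differed by -1.37 (SE 0.35), with treated arrays spread from -2.71 to -1.10. Iglj4, a joining segment of an immunoglobulin light chain, differed by -1.06 (SE 0.25). All 4 probes lay below the array median on each treated array.

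The other lower genes had varied roles. Msh3, a mismatch repair protein, was at -0.46, -0.46 and -0.15 in controls and -1.15, -1.47 and -1.37 at 100 nM, a difference of -0.98 (SE 0.20). Its other probes gave -0.36 and -0.08, in the same direction and smaller. Rsph1, a protein of the radial spokes of cilia, differed by -1.38 (SE 0.30), the proteoglycan gene Esm1 by -1.12 (SE 0.28) and Sprr2g, a protein of the cornified envelope of skin, by -1.63 (SE 0.41). The controls of Sprr2g were wide, from -1.77 to -0.12, and the highest treated array was at -1.95. Hif3a, a relative of the hypoxia-inducible factors, gave -1.14 (SE 0.29) on this probe and 0.03 and 0.06 on its others. Kif1b, a kinesin motor, gave -0.73 (SE 0.19) against -0.26 to 0.18 on 3 others, and Cacfd1 -0.64 (SE 0.17) against -0.14 to -0.07 on 3 others. Hoga1, an enzyme of hydroxyproline breakdown, differed by -0.69 (SE 0.18) and Thtpa, a thiamine triphosphatase, by -0.80 (SE 0.21).

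Among the higher genes, Ldb2 had the smallest p. It encodes a partner of LIM-domain transcription factors and read -1.61, -0.76 and -0.71 in controls and 0.51, 0.21 and 0.44 at 100 nM. The difference was 1.42 (SE 0.28, interval 0.81 to 2.02), or 2.67-fold higher, while the other probe of the gene gave 0.00. Stat4, a transcription factor of interleukin-12 signalling, read -3.24, -2.85 and -2.74 in controls and -2.24, -1.12 and -1.21 at 100 nM, a difference of 1.42 (SE 0.32). Its other probe gave -0.01. Both genes thus rested on a probe that its partner on the array did not share.

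Nkd2 read higher at 100 nM than at the other doses and in controls. It encodes Naked2, an antagonist of Wnt signalling that binds Dishevelled. Its level was -0.88, -0.35 and -0.36 in controls and 0.39, 0.44 and 0.10 at 100 nM, a difference of 0.84 (SE 0.20, interval 0.40 to 1.27). At 10 nM the arrays read -0.92, -0.58 and -0.71, and at 1 µM -0.93, -0.74 and -0.54. The 3 arrays at 100 nM were the highest of the 12, and the difference was 1.05 (SE 0.20, adjusted p = 0.842 in limma) from 10 nM and 1.04 (SE 0.20, adjusted p = 0.874) from 1 µM. Hprt, Ccdc85b, Olfr1215 and Uhmk1 also had their highest 3 arrays at 100 nM. Several lower genes, among them Olfr73, Cd72, Esm1, Iglj4, Vsir, Thtpa and Rsph1, had their lowest 3 there, so the pattern is not particular to Nkd2. Nkd2 was singled out here after its values were seen.

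The remaining higher genes differed by 0.53 to 1.08. Myocd encodes myocardin, the coactivator of smooth and cardiac muscle genes, and read -0.53, -0.20 and -0.18 in controls and 0.22, 0.51 and 0.45 at 100 nM. The difference was 0.70 (SE 0.19), with -0.09 and 0.08 on its other probes. Me2, a mitochondrial malic enzyme, gave 1.08 (SE 0.31) and 0.14 on its other probe. Dcun1d2, a factor of cullin neddylation, gave 1.03 (SE 0.27) and -0.11 on its other. Dchs1, a large protocadherin of planar cell polarity, differed by 0.95 (SE 0.26) and the ubiquitin ligase gene Trim9 by 0.77 (SE 0.22), with -0.16 to 0.01 on 4 other probes. Kpna1, an importin that carries proteins into the nucleus, differed by 0.75 (SE 0.21), the olfactory receptor gene Olfr1215 by 0.81 (SE 0.23), Samt1c by 0.70 (SE 0.18) and Ccdc85b by 0.67 (SE 0.20). The kinase gene Uhmk1 was tight, at 0.63 to 0.78 in controls and 1.28 to 1.38 at 100 nM, but its probe gave 0.59 (SE 0.14) against -0.35 and 0.04 on its others.

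**Figure D2:**
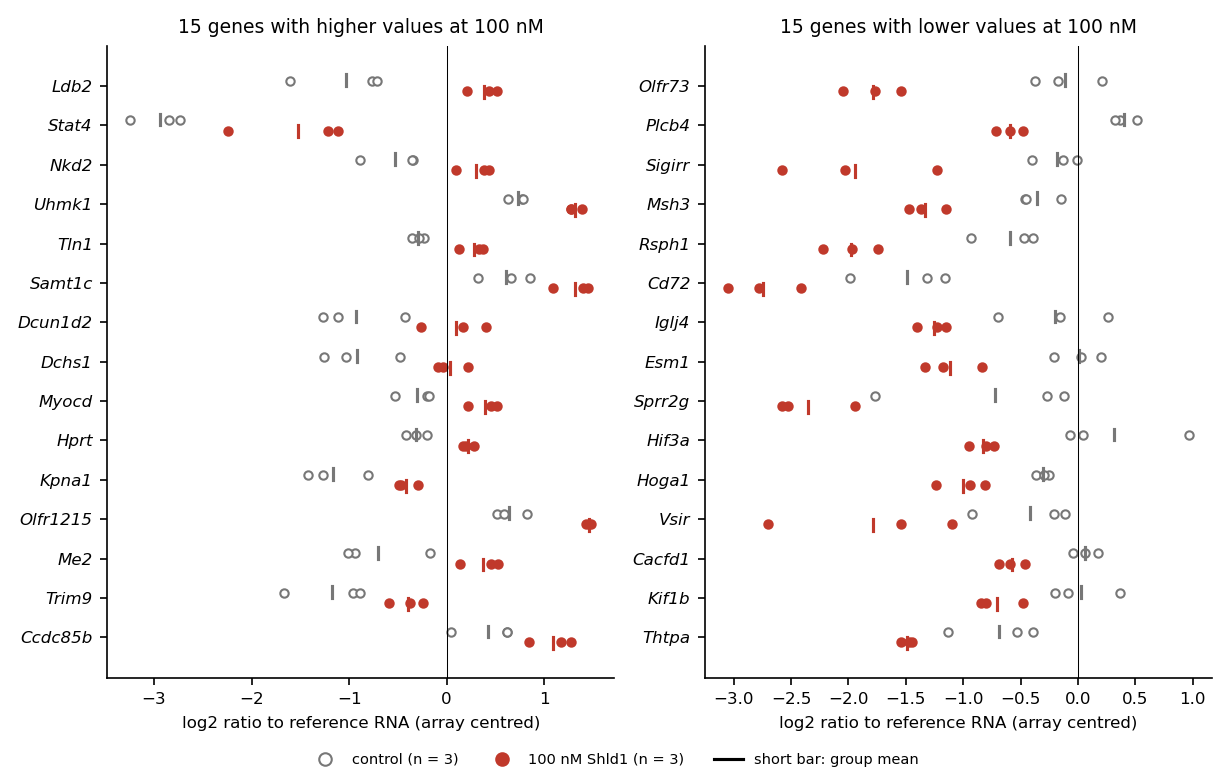
Log2 ratios to the reference RNA for the 15 higher and 15 lower named genes, with open circles for the 3 control arrays, filled circles for the 3 arrays at 100 nM Shld1 and short bars for group means. The groups do not overlap in any of the 30, which were chosen by their small p, and all 15 lower genes have a mean below 0 at 100 nM.

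A pair of densely probed transcripts, Tln1 and Hprt, was among the higher genes. Tln1 encodes talin, which links integrins to actin. Its named probe read -0.23, -0.36 and -0.28 in controls and 0.34, 0.13 and 0.37 at 100 nM, a difference of 0.57 (SE 0.15). Over all 61 probes of Tln1 the differences ran from -0.78 to 0.60 with a median of 0.16, 51 above 0. The mean of these probes gave 0.13 (SE 0.13, interval -0.15 to 0.40). Hprt, the purine salvage enzyme often used as a reference transcript, gave 0.53 (SE 0.15) on its named probe. Its 73 probes ran from -0.94 to 0.74 with a median of 0.14, 50 above 0, and their mean was 0.08 (SE 0.12, interval -0.19 to 0.34). In both genes the named probe lay near the upper end of its gene.

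Probes of the same gene shared little of their difference at 100 nM. For 4863 genes with 2 or more tested probes, a single pair was taken, the probes with the lowest and the highest number. The pair had the same sign in 51.3% of genes. Across these pairs the correlation of the differences was 0.05, and that of the levels over all arrays was 0.30, both given as descriptions since the probes of a pair share their arrays. A single pair had both unadjusted p under 0.05, and its signs were opposite. For the 30 named genes, 154 other probes were tested, 60 of them for Tln1 and 72 for Hprt. Of the 154, 110 had the sign of the named probe and 4 also had an unadjusted p under 0.05. All 4 belonged to Tln1 or Hprt, and for the other 11 genes the direction was shared by 11 of 22 probes.

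Genes read by 3 or more probes were also ranked by the mean of their probes, and again none passed (adjusted p = 1.00 for each, limma). Lrch1, a leucine-rich repeat protein, had the smallest p, with 0.57, -0.19 and 0.41 in controls and -1.20, -0.51 and -0.28 at 100 nM. Its difference was -0.93 (SE 0.25), and its 3 probes gave -1.70 to -0.26. Tlx2, a homeobox factor of the enteric nervous system, differed by -0.71 (SE 0.22) and Nos3, the endothelial nitric oxide synthase, by -0.62 (SE 0.23), in each case with all 3 probes below 0. Vti1a, a SNARE of Golgi traffic, differed by -0.50 (SE 0.16) because of a single probe at -1.87, while the other probes gave 0.08 and 0.11. Without that probe, which was not measured on all 6 arrays, the mean of Vti1a was 0.10. On the higher side stood Nr4a3, an orphan nuclear receptor of the immediate early class, at 0.53 (SE 0.25) and Prokr1, a prokineticin receptor, at 0.49 (SE 0.19), both with all 3 probes above 0. Msl2, of the complex that acetylates histone H4, was at 0.34 (SE 0.15), Mybbp1a, a nucleolar repressor, at 0.29 (SE 0.13) and Ankrd33b at 0.26 (SE 0.12).

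The lower values at 100 nM were not spread evenly over the range of the array. Among 2213 probes whose mean level lay below -1, 6.60% had an unadjusted p under 0.05 and a lower value at 100 nM and 0.542% a higher one. Among 2078 probes with a mean level above 1, the shares were 0.289% lower and 1.11% higher. The median difference was -0.13 below -1 and 0.06 above 1. Low probes were also noisier, with a median SE of 0.47 below -2 beside 0.23 between 0 and 1. The spread of ratios on each array, as the scaled median absolute deviation, was 0.729, 0.686 and 0.589 in controls and 0.744, 0.678 and 0.694 at 100 nM, so that control replicate 3 was the narrowest. With all arrays scaled to equal spread, the shares below -1 became 4.76% lower and 1.36% higher. Without control replicate 3 they were 4.76% lower and 2.71% higher. The median difference below -1 shrank to -0.049 after scaling and -0.039 without control replicate 3, and that above 1 turned to -0.025 and -0.058. Above 1 the order of the shares turned as well, with 0.868% lower and 0.579% higher after scaling and 1.07% lower and 0.794% higher without control replicate 3. The part of array spread in these shares was not tested further.

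**Figure D3:**
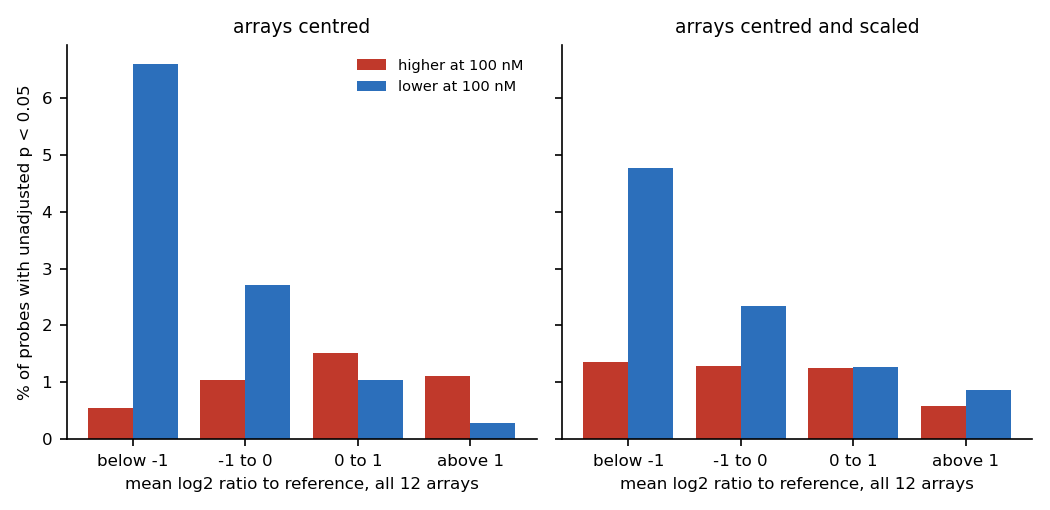
Share of probes with an unadjusted p under 0.05, higher or lower at 100 nM Shld1, in 4 ranges of the mean log2 ratio to the reference over all 12 arrays, with arrays centred (left) and also scaled to equal spread (right). Lower values prevail below -1, at 6.60% when centred and 4.76% when scaled.

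Of the FK506-binding proteins, the family of FKBP12, 0 of 14 measured genes passed. At an unadjusted p under 0.05 there was 1 of 14, where all genes had 3.13%, so the count says nothing particular to the family. Fkbp1a, which encodes FKBP12 itself and has 3 probes, read 0.52, 0.28 and 0.46 in controls and 0.48, 0.41 and 0.53 at 100 nM. The difference was 0.06 (SE 0.14), with an interval of -0.25 to 0.36, inside 2-fold either way. Fkbp1b, the close relative that sits on cardiac ryanodine receptors, was at -0.04 (SE 0.14), and Fkbp4, a cochaperone of steroid receptors, at 0.05 (SE 0.19). Fkbp5, a cochaperone induced by glucocorticoids, read -0.40, -0.52 and -0.29 in controls and -0.81, -1.09 and -0.53 at 100 nM. All treated arrays of Fkbp5 lay below the controls, by -0.41 (SE 0.17, interval -0.78 to -0.04, adjusted p = 1.00 in limma). The same held for the retinal cochaperone gene Aipl1, at -0.41 (SE 0.24). The other cytosolic and nuclear members, Fkbp3, Fkbp8, Fkbp15 and Fkbpl, lay between -0.01 and 0.10. The 5 members of the endoplasmic reticulum were Fkbp2 at 0.24 (SE 0.25), Fkbp11 at 0.14 (SE 0.15, all treated arrays above control), Fkbp14 at 0.12 (SE 0.20), Fkbp7 at -0.06 (SE 0.28) and Fkbp9 at -0.15 (SE 0.25). Cyclophilins and parvulins, the other prolyl isomerases, had a median of 0.07 over 15 genes, from Ppif, the mitochondrial cyclophilin, at -0.23 (SE 0.18) to Ppwd1 at 0.21 (SE 0.21). Ppih, of the spliceosome, was at 0.19 (SE 0.17).

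For scale, the median difference over all 14843 genes was 0.01, and 46.8% of genes lay below control. Over 30 gene lists, 485 of 539 genes were measured and 0 passed (limma). At an unadjusted p under 0.05 there were 0 higher and 5 lower among the 485, where all genes had 1.23% higher and 1.90% lower. Groups did not overlap for 13 higher and 8 lower of the 455 listed genes measured on 6 arrays, beside 7.41% of all genes in either direction. The list medians ran from -0.30 to 0.19, and 6 of 30 lay more than 0.1 from 0.

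Calcineurin and mTOR, on which FK506 and rapamycin act, had list medians close to that of all genes, while calcium channels had a lower one. Calcineurin and NFAT had a median of 0.04 over 13 genes, 10 above control, with the calcineurin inhibitor gene Cabin1 at 0.37 (SE 0.18). Its level was -0.43, -0.61 and -0.66 in controls and -0.34, -0.32 and 0.10 at 100 nM, without overlap. The regulatory subunit gene Ppp3r1 was at -0.48 (SE 0.30) on 2 arrays of each group. The mTOR complexes and their regulators had a median of 0.03 over 19 genes, with Deptor, an inhibitor of both complexes, at -0.41 (SE 0.33) and the stress-induced regulator Sesn1 at 0.29 (SE 0.25). Calcium release and store channels had a median of -0.11 over 12 genes, 9 below control. Among them the calcium pump gene Atp2a2 (SERCA2) was at -0.43 (SE 0.25), with replicate 2 at 100 nM at -1.03 and the other 5 arrays between -0.07 and 0.16. The calcium-binding chaperone gene Calr was at 0.46 (SE 0.30). Receptors and SMADs of the TGF-beta family had a median of 0.05 over 16 genes, with the shared mediator Smad4 at -0.32 (SE 0.16) and the receptor gene Bmpr1a at 0.13 (SE 0.16). Target genes of TGF-beta had a median of 0.06 over 18, with the latent TGF-beta binding protein gene Ltbp1 at -0.18 (SE 0.15) and the repressor gene Tgif1 at 0.18 (SE 0.14).

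Protein turnover is the process through which Shld1 acts on its fusion proteins. The proteasome list had a median of 0.08 over 32 subunits, 23 of them above control, and 0 passed. Psma4, a subunit of the core particle, read 0.42, 0.59 and 0.43 in controls and 0.70, 0.78 and 0.997 at 100 nM, a difference of 0.34 (SE 0.16) without overlap. The lid subunit gene Psmd12 was at 0.13 (SE 0.15) and the ubiquitin receptor gene Psmd4 at -0.12 (SE 0.13). The median level of the proteasome genes was 0.58, 0.37 and 0.33 on the control arrays and 0.55, 0.58 and 0.65 at 100 nM, so the groups overlapped through control replicate 1. Other genes of ubiquitin and protein quality control had a median of -0.03 over 16. They ranged from Ufd1, of the complex that extracts proteins for degradation, at -0.32 (SE 0.19) to its partner Nploc4 at 0.22 (SE 0.16). Bag3, a cochaperone of selective autophagy, was at 0.18 (SE 0.13). The median was 0.05 for 14 heat shock genes, with Hspb8 at 0.36 (SE 0.26) and Hspa1a at -0.31 (SE 0.22). It was 0.03 for 19 genes of the unfolded protein response, with Manf at 0.38 (SE 0.33) and the disulfide isomerase gene Pdia6 at -0.31 (SE 0.24).

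Growth and damage programmes gave small differences. G1/S and replication genes had a median of 0.11 over 18, 13 above control. Their median level per array was 0.32, 0.16 and 0.20 in controls and 0.40, 0.36 and 0.39 at 100 nM, with all treated arrays above. Of all 30 lists, the only other one without overlap was that of epithelial markers, with all treated arrays below. Within the G1/S list, Mcm3 of the replicative helicase was at 0.25 (SE 0.15) and the licensing factor gene Cdc6 at 0.20 (SE 0.13). The ribonucleotide reductase gene Rrm2 was at 0.19 (SE 0.13) and the histone mRNA binding protein gene Slbp at -0.38 (SE 0.25). The median of G2/M genes was -0.02 over 18, with the topoisomerase gene Top2a at 0.24 (SE 0.21) and Cdc25c at -0.14 (SE 0.15), and that of cytosolic ribosomal proteins 0.03 over 22, with Rpl8 at 0.30 (SE 0.15) and Rpl7 at -0.15 (SE 0.17). It was 0.08 over 18 p53 targets, with the kinase gene Plk2 at 0.33 (SE 0.17) and Mdm2 at -0.14 (SE 0.23). Polk, a translesion polymerase, gave 1.09 (SE 0.54), with controls at -1.19, -0.57 and 1.11 and treated arrays from 0.60 to 1.09. Immediate early genes had a median of -0.05 over 23, with Egr2 at 0.24 (SE 0.15) and Zfp36 at -0.28 (SE 0.23).

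Inflammatory and metabolic lists were likewise near 0. For 21 interferon response genes the median was -0.03. The antiviral genes gave Mx2 at -0.62 (SE 0.35), Bst2 at -0.39 (SE 0.25) and Oas2 at 0.26 (SE 0.22). NF-kB and cytokine genes had 0.01 over 21, with the chemokine gene Cxcl2 at -0.74 (SE 0.44) and the cytokine gene Il6 at 0.51 (SE 0.27), the latter on 2 treated arrays. NRF2 and oxidative stress genes had 0.05 over 20. Txnrd1, a thioredoxin reductase and classic NRF2 target, read 0.51, 0.45 and 0.49 in controls and 0.67, 0.86 and 0.72 at 100 nM, a difference of 0.27 (SE 0.14), and the cystine transporter gene Slc7a11 was at -0.84 (SE 0.52). Xenobiotic metabolism had a median of -0.02 over 14, with Abcc3 at -0.53 (SE 0.32) and Tiparp at 0.27 (SE 0.23). Hypoxia and glycolysis had 0.02 over 20, with Aldoa at 0.28 (SE 0.25). Car9, the hypoxia-induced carbonic anhydrase, read -1.75, -1.47 and -0.75 in controls and -1.94, -2.52 and -1.82 at 100 nM, a difference of -0.77 (SE 0.28). Cholesterol synthesis had -0.02 over 18, from the kinase gene Pmvk at -0.22 (SE 0.20) to Hmgcs1 at 0.19, with Fdps at 0.14 (SE 0.18).

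**Figure D4:**
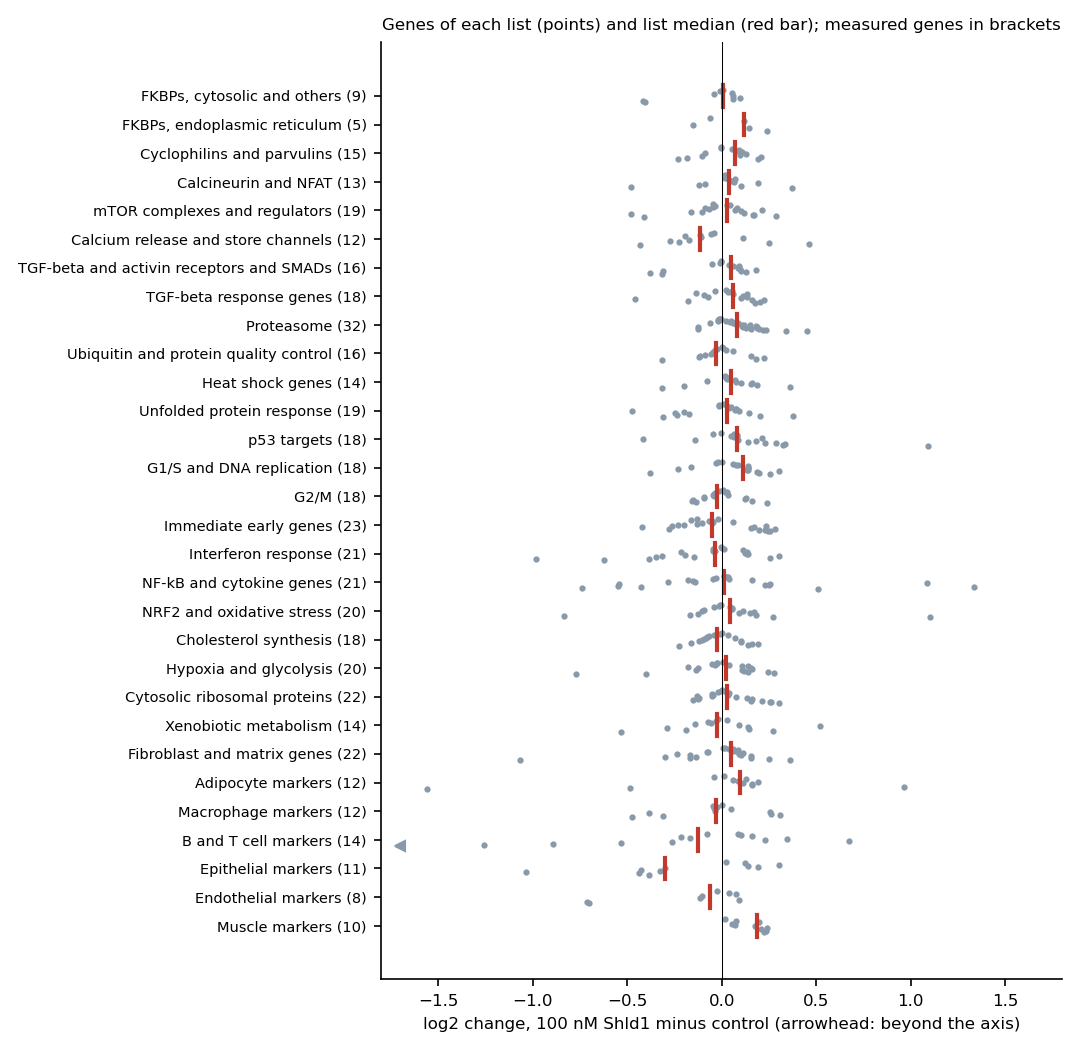
Log2 difference of 100 nM Shld1 minus control for every measured gene of 30 lists (grey points, with an arrowhead for Cd3g beyond the axis) and the median of each list (red bar). List medians lie between -0.30 and 0.19.

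Genes of fibroblasts and matrix had a median of 0.05 over 22, 14 above control. Lum, the collagen-binding proteoglycan lumican, was the exception by size, at -1.07 (SE 0.47, interval -2.10 to -0.03). It read 4.50, 3.97 and 4.12 in controls and 2.59, 2.32 and 4.49 at 100 nM. Array 3 at 100 nM was at the level of the controls, so the groups overlapped. Timp1, an inhibitor of matrix metalloproteinases, was at 0.36 (SE 0.24), and the collagen genes Col1a1 and Col3a1 were at -0.17 (SE 0.15) and -0.08 (SE 0.18).

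Markers of other cell types were read beside these. In RNA of a whole culture, fewer cells of a type and less RNA per cell cannot be told apart. B and T cell markers had a median of -0.12 over 14 genes, 8 below control, and the list was drawn up with the value of Cd72 known. The median turned to 0.04 without control replicate 3 and to 0.0042 over probes measured on all 6 arrays. Cd3g, a chain of the T cell receptor complex, gave -2.70 (SE 0.45, adjusted p = 0.645 in limma), from -3.98, -4.84 and -4.82 in controls to -7.60 and -6.91 on the 2 treated arrays with a value. Cd74, the invariant chain of class II antigen presentation, was at -0.53 (SE 0.28) and Cd3d at 0.67 (SE 0.53). The list's median level per array was -0.94 to -0.30 in controls and -0.78 to -0.41 at 100 nM. Macrophage markers had a median of -0.03 over 12, with Ptprc at -0.47 (SE 0.44) and Adgre1 at 0.31 (SE 0.46), and per array -2.11 to -0.73 in controls and -1.91 to -0.69 at 100 nM. Epithelial markers had the lowest median of all lists, -0.30 over 11 genes with 6 below control, and per array -0.21 to -0.05 in controls and -0.93 to -0.45 at 100 nM. Esrp1, an epithelial splicing factor, was at -0.38 (SE 0.20), Cdh1 (E-cadherin) at -0.44 (SE 0.30) and Epcam at 0.19 (SE 0.25). That median was 0.02 without control replicate 3 and also over probes measured on all 12 arrays. Muscle markers had the highest median, 0.19 over 10 genes, all 10 above control but each by at most 0.24, with embryonic myosin Myh3 at 0.22 (SE 0.17). The muscle median was 0.12 without control replicate 1, 0.11 without 100 nM replicate 1 and 0.088 without 100 nM replicate 3. Over the 9 muscle genes measured on all 6 arrays, the median level per array overlapped, at 0.008 to 0.078 in controls and -0.014 to 0.099 at 100 nM. Against the shared controls the muscle median was also above 0 at 10 nM (0.13) and 1 µM (0.08). At 100 nM, 5 of 10 muscle genes lay above their 10 nM value, and 5 of 10 above their 1 µM value. Endothelial markers had -0.06 over 8, with the receptor gene Tek at -0.70 (SE 0.45) and Emcn at 0.09 (SE 0.18). Adipocyte markers had 0.10 over 12, with the fatty acid receptor gene Cd36 at -1.56 (SE 0.83) and Retn (resistin) at 0.96 (SE 0.94), each on 2 arrays of both groups. The part of other cell types in any value above was not tested.

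The 100 nM arrays were also set directly against the neighbouring doses, a difference that does not use the control levels. Against 10 nM, 0 of 31426 probes passed (0% called, smallest adjusted p = 0.271, limma), with 3.98% at an unadjusted p under 0.05. The smallest was that of Cd72, which read 0.10, -0.85 and -0.87 at 10 nM, 2.21 above its level at 100 nM (SE 0.30). A probe of Cd74 gave -1.15 (SE 0.22, adjusted p = 0.842 in limma). Against 1 µM, 0 of 31065 probes passed (0% called), with 4.96% at an unadjusted p under 0.05. The smallest adjusted p, 0.0555, was that of probe 27598, which has no gene symbol and was higher at 100 nM by 3.16 (SE 0.36). That probe read 1.72, 1.71 and 0.85 in controls and 0.47, 1.06 and 1.12 at 100 nM, where the groups overlapped. At 1 µM it read -1.84, -2.64 and -2.33. From control it differed by -0.14 at 10 nM, -0.54 at 100 nM and -3.70 at 1 µM, so the 1 µM arrays stood apart. Between 100 nM and 1 µM it passed in 5 of 21 other settings. The lowest adjusted p was 0.0175 in limma, when only probes measured on all 12 arrays were tested. Olfr73 was lower at 100 nM than at 1 µM by -1.51 (SE 0.25, adjusted p = 0.696).

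Of the 30 named genes, 0 differed from 10 nM or from 1 µM after adjustment. They were chosen by the difference between the 100 nM and control arrays, so extreme values in either group favoured their choice. The part of this choice in their differences from the other doses was not tested. Of the 15 higher genes, 13 lay above control at 10 nM and 14 at 1 µM. Of the 15 lower genes, 13 lay below control at 10 nM and 13 at 1 µM. These counts use the same control arrays by which the genes were chosen. Against the shared controls, Plcb4 was at -0.49 (SE 0.18) at 10 nM, -0.998 at 100 nM and -0.92 (SE 0.18) at 1 µM, and Stat4 at 1.89, 1.42 and 1.85 in the same order. Esm1 was at -0.05 and 0.20 at 10 nM and 1 µM beside -1.12 at 100 nM, and Iglj4 at -0.14 and 0.05 beside -1.06. Since all 3 values of a gene use the same control arrays, their order is a description only.

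**Figure D5:**
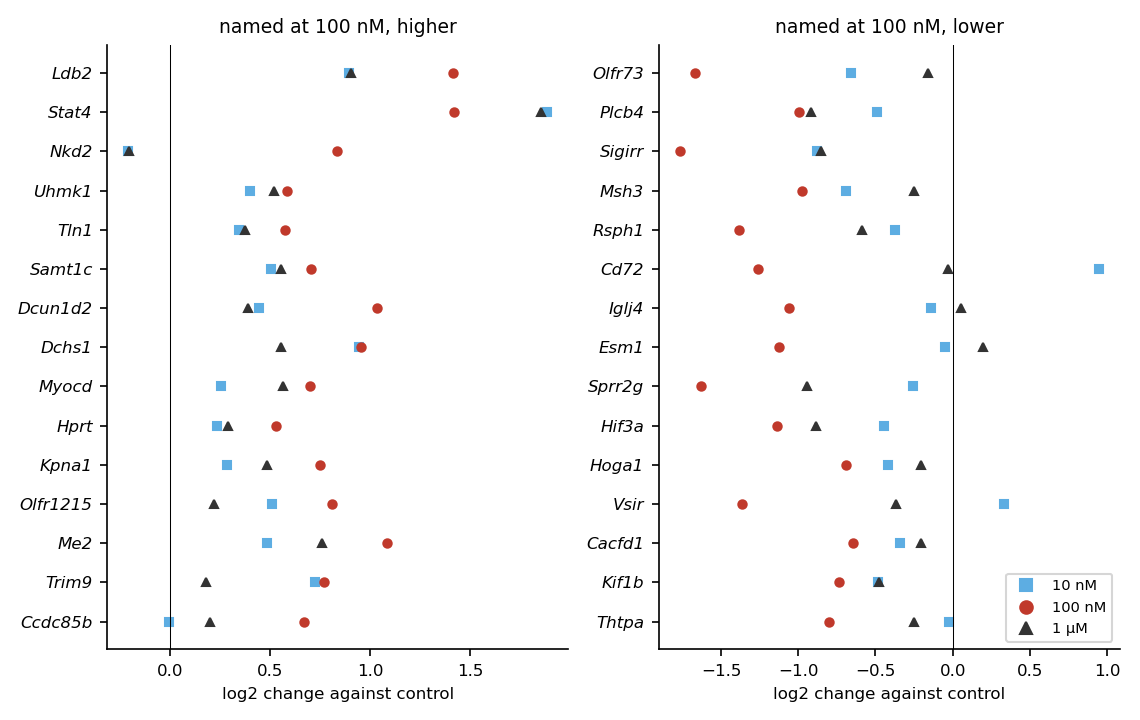
Log2 difference against control at 10 nM (squares), 100 nM (circles) and 1 µM Shld1 (triangles) for the 30 genes named at 100 nM. All doses share the same 3 control arrays, and Nkd2 lies above control at 100 nM alone, at 0.84 beside -0.21 and -0.20.

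Some lists had larger median differences from 1 µM than from control. The cholesterol synthesis genes were higher at 100 nM than at 1 µM for 15 of 18, with a median difference of 0.30. Over all genes the median was 0.03, with 55.9% higher than at 1 µM and 44.0% lower, and 53.6% higher than at 10 nM. Of the 18 genes, 5 were higher at an unadjusted p under 0.05, beside 2.53% of all genes, and 0 passed. Hmgcs1 at 0.67 (SE 0.26) and Sqle at 0.46 (SE 0.17) were among the 5. Against control the list median was -0.16 at 10 nM, -0.02 at 100 nM and -0.355 at 1 µM, with 7 of 18 genes above control at 100 nM. Fibroblast and matrix genes were higher than at 1 µM for 20 of 22 (median 0.18), with the metalloproteinase gene Mmp2 at 0.51 and the receptor gene Pdgfrb at 0.46. Against control that list had a median of 0.05 at 100 nM and -0.23 at 1 µM. Proteasome subunits were higher for 26 of 32 (median 0.14) and, against 10 nM, for 27 of 32 (median 0.18). This lean was not particular to the proteasome. Cytosolic ribosomal proteins were higher than at 10 nM for 20 of 22. Ubiquitin and protein quality control genes were higher than at 1 µM for 14 of 16 and heat shock genes for 12 of 14. Macrophage markers were lower than at 1 µM for 11 of 12 (median -0.38) and B and T cell markers for 13 of 14 (median -0.35). Endothelial markers were likewise lower for 7 of 8 (median -0.17) and epithelial markers for 9 of 11 (median -0.16). Adipocyte and muscle markers were split, with 6 of 12 and 5 of 10 lower. Against control, the macrophage median was 0.35 at 1 µM and -0.03 at 100 nM. The B and T cell median was 0.26 at 1 µM and -0.12 at 100 nM. In these comparisons 0 genes of any list passed. The comparisons with 10 nM and 1 µM use the same 100 nM arrays, and no list was tested as a set.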

How the data were processed

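Each array gave a deposited log2 ratio per probe, sample (Cy5) over reference (Cy3), with dyes and Axon scanner per the labels. How the authors normalized the ratios, corrected for background or removed spots was not stated, and base 2 is assumed. Between 13.3% and 21.0% of values were blank on the 6 arrays, with array medians of -0.19 to -0.095. Here each array was centred on its median, and 31447 probes with at least 2 of 3 values on each side were fitted with limma 3.58.1 (R 4.3.3), using the 12 arrays together with a term for group alone and Benjamini-Hochberg correction at 0.05. A gene's value is the mean of its probes, each taken about its own mean.

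Probes were named from the platform annotation, and a RefSeq table (GRCm38.p6) supplied current symbols through the gene identifier: 26173 had 1 symbol, 28 several and 12583 none. Named genes were the 15 higher and 15 lower with the smallest unadjusted p among non-provisional symbols measured on all 6 arrays, 5 and 5 among genes with 3 or more probes, the member with the smallest p in each direction of each list, and the FK506-binding proteins; genes added to these were chosen after their values were seen. The comparison and the 30 lists were chosen with earlier results of these data known. In 3 simulations of this comparison with independent noise per probe, 200 of 31447 probes were changed. Equal numbers were changed by 2-fold, 4-fold, 8-fold and 16-fold in the same set, under a single correction. Changes by 2-fold were called in 27.3%, by 4-fold in 86.0%, by 8-fold in 92.7% and by 16-fold in 96.0%, beside 7 to 15 false calls each time. Calls of large changes loosen the adjusted cutoff for small ones. The rates therefore hold for such a mix, and not for these arrays, where 0 probes passed. No pair of arrays shared more than 0.146% of its values (equal to within 0.0005). Alternatives were other centring, scaling, quantile normalization, probe filters, fits and variance models, a replicate block, and leaving out each array. The number of arrays limits the precision. Figures used matplotlib 3.10.9 in Python 3.11.15.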

Additional observations from a re-analysis of the deposited data

How the results depend on the processing

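The absence of calls against control held in 17 of 18 other settings. Without 100 nM replicate 1 a single probe passed, of the carboxylesterase gene Ces2a (-3.57, SE 0.27, adjusted p = 0.0417, limma), so that the counts without 1 array ran from 0 to 1. Only 1 treated array then has a value for that probe, -4.90, while replicate 1 was at -1.64 beside controls of -1.56 to -1.17. The count at an unadjusted p under 0.05 ran from 754 to 1470 (908 to 1470 without 1 array). The share of higher values in it was 36.5% in the main fit. In the other settings that share ran from 32.3% without 100 nM replicate 3 to 46.8% without control replicate 2.

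Against 1 µM, 1 probe passed with values not centred (adjusted p = 0.0421), after quantile normalization (0.0489) and with only probes on all 6 (0.0234) or all 12 arrays (0.0175), in each case probe 27598. Leaving out 1 array gave counts of 0 to 1: probe 27598 passed without control replicate 3 (0.0478), the probe of Ces2a without 100 nM replicate 1 (0.0329) and unnamed probe 29325 without 1 µM replicate 2 (0.0327). Against 10 nM no setting gave a call, and 1252 probes at an unadjusted p under 0.05 became 2098 with array weights and 2049 with these 2 groups alone and the replicate block. Leaving out the 10 nM and 1 µM arrays was added after the data were seen.

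Of the single genes refitted, all but Fkbp1a, Fkbp1b, Fkbp4 and Fkbp5 were chosen by their small p. That choice favours a kept direction, so the count of kept directions is no measure of how firm they are. Single genes kept their direction in 780 of 787 refits, and none passed. Exceptions were Vti1a at 0.10 with only probes on all 6 or all 12 arrays, Fkbp1a at -0.014 without control replicate 2, Fkbp1b at 0.022 without control replicate 3, and Fkbp4 at -0.012 after scaling, -0.036 without control replicate 3 and -0.03 without 100 nM replicate 1. Without 1 array, Fkbp1a ran from -0.014 to 0.11, Fkbp1b from -0.11 to 0.022 and Fkbp4 from -0.036 to 0.11. List medians moved by less than the spread between arrays in 552 of 570 refits. For the other 18, epithelial markers among them, the cause was not tested. Most list medians lay near 0, and 7 of 30 kept their sign in all 19 other settings. Calcium release and store channels stayed below 0. FK506-binding proteins of the endoplasmic reticulum, G1/S genes, muscle markers, p53 targets, the proteasome and TGF-beta response genes stayed above 0.

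Arrays with the same replicate number in the labels did not clearly deviate together: control and 100 nM correlated at 0.10, 0.02 and 0.05 for numbers 1 to 3, beside -0.21 to 0.15 for other pairs. With a replicate block 0 probes passed against control, with 1247 at an unadjusted p under 0.05 (1149 with a random replicate block) in place of 1048. Without scanner intensities, dim probes could not be told from bright ones.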
